A study of Mus musculus with 45 samples.

Results

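Described here are the snoRNA host genes named Snhg and Gas5. Gene rows whose symbol is Snhg followed by a number, plus Gas5, gave 16 of the 23575 genes in the table. The 10 described were chosen by their mean level over all 45 libraries: Gas5, Snhg1, Snhg8, Snhg6, Snhg5, Snhg3, Snhg15, Snhg12, Snhg20 and Snhg4. They held 680 of the 276608 transcripts. The mean level that chose them is a description and is not tested. At the limit of the choice, Snhg4 averaged 63.1 CPM (reads of the gene relative to all reads of the library, scaled alike in each) and was kept, while Snhg17 averaged 42.4 CPM and was not. The other rows below that limit were Snhg16, Snhg10, Snhg11, Snhg18 and Snhg14, with means from 1.21 to 33.0 CPM. Snhg26 was not analysed here. All 16 genes were tested in the whole-table fits wherever they passed the filter on low values, and the 10 described ones passed it in every fit.

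Mouse neural progenitor cells were sampled by nanopore long-read RNA sequencing as they were reprogrammed into induced pluripotent stem cells. The progenitors were made from O4G, an R1 embryonic stem cell line with a GFP reporter driven by the Oct4 promoter. They were wild type, or stably transfected with a doxycycline-inducible factor set, OKMS or OKS (Oct4, Klf4 and Sox2, with Myc in the first). The genotype labels of both factor lines also carry "Luciferase-AS". Uninduced cells grew in progenitor medium with EGF and FGF-2. Induced cells grew in serum medium with LIF and doxycycline, and part of them were later passaged in 2i-LIF, which has LIF and 2 kinase inhibitors in place of serum. Wild-type progenitors were also kept for 2 days in serum medium with doxycycline, so they share the medium and the drug with the induced cells but not the factors. The stem cells were O4G, R1 and R1 clone 3 in 2i-LIF. The labels do not say how many clones each factor line holds. Nothing says that libraries of a group came from separate cultures, so p-values measure the spread between these libraries, which may be technical.

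A snoRNA host gene is transcribed as a long RNA whose introns carry small nucleolar RNAs. Splicing frees the introns, and the small RNAs are trimmed out of them. Box C/D snoRNAs guide ribose methylation and box H/ACA snoRNAs guide pseudouridylation, mostly of ribosomal RNA, while scaRNAs act on the RNAs of the spliceosome. The spliced exons of genes such as Gas5 have little coding capacity, and many of these RNAs are known to be removed by nonsense-mediated decay during translation. Several hosts, Gas5 the best known, begin with a run of pyrimidines, as do the mRNAs of ribosomal proteins, whose translation depends on growth signals. Long reads measure the spliced host RNA. The snoRNAs themselves are too short for these libraries, and their levels are not reported here.

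Hosts of box C/D RNAs were Gas5, Snhg5, Snhg6 and Snhg1. Gas5 (growth arrest specific 5, chr1:161034422-161038539, plus strand) held 9 snoRNA loci in 10 entries, 8 of them with the letters of both boxes, Snhg5 (chr9:88521050-88522929, minus strand) held Snord50a and Snord50b, and Snhg6 (chr1:9941959-9944118, minus strand) held Snord87. Snhg1 (chr19:8723475-8726443, plus strand) held 8 loci, 4 of them with C and D letters, Snord22 among the others. Hosts of H/ACA RNAs were Snhg8 (chr3:123507552-123508404, minus strand) with Snora24, Snhg3 (chr4:132348014-132353686, minus strand) with Snora73a and Snora73b, and Snhg15 (chr11:6525591-6528760, minus strand) with Snora9. Snhg20 (chr11:117076008-117078955, plus strand) held 1 entry, Gm26083, typed as a scaRNA. Snhg12 (chr4:132308623-132311024, plus strand) held both kinds, Snora16a, Snora44, Snora61 and Snord99. Snhg4 held 2 loci, whose sequences are not shown. Positions are from GENCODE M21 (GRCm38). Opposite-strand genes overlap Gas5 (Zbtb37), Snhg6 (Mcmdc2) and Snhg3 (Gm17300), Snhg3 also overlaps Rcc1 on its own strand, and AC121821.1 and Gm28285 overlap Snhg4. The use of strand in counting is not stated, and reads in such overlaps may go to either gene, so those 4 levels are less certain. Overlaps were looked up within the annotated spans alone. Deposited transcripts of several hosts reach further, those of Snhg15 over chr11:6524328-6622491 and those of Snhg8 over chr3:123505956-123535900. Genes crossed there were not looked up.

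The snoRNAs below are those of the hosts whose levels or transcripts the results turn on. Sequences are from GENCODE M21 transcripts, and capitals mark box C (ATGATGA or GTGATGA, starting in the first 15 bases) with box D (CTGA, starting in the last 20 bases), or the ACA near the end. Both kinds were searched on the strand of the snoRNA. The C and D letters occur in 19.6% and the ACA letters in 43.7% of 1558 snoRNA and scaRNA entries.
Snord80 of Gas5 (chr1:161037604-161037680, plus strand): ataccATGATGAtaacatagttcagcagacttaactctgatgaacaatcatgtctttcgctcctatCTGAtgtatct
Snord47 of Gas5 (chr1:161038082-161038158, plus strand): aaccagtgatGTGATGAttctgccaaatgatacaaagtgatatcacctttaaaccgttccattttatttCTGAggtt
Snord87 of Snhg6 (chr1:9942463-9942549, minus strand): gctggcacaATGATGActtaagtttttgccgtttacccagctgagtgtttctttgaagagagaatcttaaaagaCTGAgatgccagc
Snord50a of Snhg5 (chr9:88521529-88521600, minus strand): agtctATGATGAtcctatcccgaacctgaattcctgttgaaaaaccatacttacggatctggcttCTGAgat
Snord50b of Snhg5 (chr9:88521797-88521868, minus strand): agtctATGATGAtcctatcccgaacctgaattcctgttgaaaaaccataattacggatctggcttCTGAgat
Snora24 of Snhg8 (chr3:123507937-123508066, minus strand): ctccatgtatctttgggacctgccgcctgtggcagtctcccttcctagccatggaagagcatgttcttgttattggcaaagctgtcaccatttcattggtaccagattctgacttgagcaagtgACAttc
Snora9 of Snhg15 (chr11:6528033-6528165, minus strand): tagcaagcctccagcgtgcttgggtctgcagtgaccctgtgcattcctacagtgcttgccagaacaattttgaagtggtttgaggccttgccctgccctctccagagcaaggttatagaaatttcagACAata
Snora61 of Snhg12 (chr4:132310240-132310369, plus strand): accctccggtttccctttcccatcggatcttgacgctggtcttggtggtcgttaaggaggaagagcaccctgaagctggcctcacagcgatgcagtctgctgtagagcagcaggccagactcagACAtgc

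The start regions below lie around the annotated starts of 7 of the 10 hosts, from RefSeq (GRCm38.p6). Each has 30 bases before the annotated start and 30 from it on. Capitals mark a run of at least 5 C or T within 10 bases of the start, searched on the gene's own strand. RefSeq entries matched 8 of the 10 genes, all but Snhg6 and Snhg4.
Gas5 start region (chr1:161035136-161035195, plus strand): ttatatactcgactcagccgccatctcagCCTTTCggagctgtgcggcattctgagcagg
Snhg1 start region (chr19:8723457-8723516, plus strand): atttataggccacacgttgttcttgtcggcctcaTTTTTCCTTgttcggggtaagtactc
Snhg8 start region (chr3:123508307-123508366, minus strand): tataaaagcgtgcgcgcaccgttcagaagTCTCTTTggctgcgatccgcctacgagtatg
Snhg5 start region (chr9:88522868-88522927, minus strand): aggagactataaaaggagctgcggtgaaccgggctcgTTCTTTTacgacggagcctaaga
Snhg12 start region (chr4:132308648-132308707, plus strand): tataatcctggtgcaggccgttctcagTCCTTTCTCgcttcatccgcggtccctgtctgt
Snhg15 start region (chr11:6528731-6528790, minus strand): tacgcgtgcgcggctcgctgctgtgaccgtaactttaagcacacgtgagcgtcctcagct
Snhg20 start region (chr11:117076753-117076812, plus strand): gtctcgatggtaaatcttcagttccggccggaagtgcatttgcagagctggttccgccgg

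Such a run lay near the start in 6 of these 8 hosts, Snhg3 being the sixth, beside 45.9% of 32851 RefSeq promoters. That share is counted per start: the 8 hosts have 9 RefSeq starts, 6 of them with a run, and the second Gas5 start has none. In Gas5, Snhg8 and Snhg12 the annotated start base itself lay within the run, as in 10.1% of all promoters. CACGTG, which is its own reverse complement and is the core letters of the site that Myc and related factors bind, was found in 1 of 9 windows of 300 bases, that of Snhg15, where it begins 11 bases after the start base, and in 7.15% of all. The deposited transcripts bear on these starts. The leading Gas5, Snhg8 and Snhg12 transcripts began 2 bases before the RefSeq start and the leading Snhg5 transcript exactly on it. Transcripts starting within 10 bases of a RefSeq start made up 93.4% of Gas5 TPM (a level per length, with the same total in each library), 98.7% of Snhg8, 97.6% of Snhg5, 83.9% of Snhg12 and 57.0% of Snhg1, whose leading transcript began 555 bases upstream of it. In Snhg20 they made up 7.49%, and its leading transcript began 11 bases upstream. Snhg15 had 2.19%: its leading transcript had a splice site outside the annotation and began 28876 bases upstream of the RefSeq start. No Snhg3 transcript started within 10 bases of the RefSeq entry, the leading one beginning 20 bases before it.

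The 45 libraries were made in 2 ways that differ in more than the flow cell. The 22 R9 libraries were direct cDNA from poly(A)-enriched RNA (447990 to 1390424 reads), and the 23 R10 libraries were PCR cDNA from total RNA (566599 to 4236442 reads). Summed pluripotency markers reached 11001 to 13551 CPM in R10 stem cells and 14.9 to 28.0 CPM in R10 progenitors, and summed neural progenitor markers ran the other way, 6.49 to 51.9 against 6311 to 7944 CPM. The pluripotency markers were Nanog, Esrrb, Zfp42, Dppa5a, Tdh and Pou5f1. The last may hold reads of the introduced Oct4 in induced cells. Mitochondrial reads made up 1.81 to 2.35% of 6 R10 stem cell libraries and 0.124% of the 1 whose label has no n number. The latter, an R1 library, stood apart from the other 6 in several values below, and results that rest on it are given with and without it. By sample number it belongs with the R10 progenitors, while the other 6 belong to a later set. The R10 libraries of day 18 carry numbers of that later set too. What the sets mark is not said. For those 6 stem cell libraries set and cell type cannot be told apart, and in R10 neither can day 18 and set. Every one of the 10 genes was above 0 in all 45 libraries, with 4364 reads in total for Snhg4 and 60175 for Gas5.

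In R10, stem cells held more RNA of 5 hosts and less of 1 than progenitors. Snhg15, Snhg5, Snhg12, Snhg1 and Snhg20 were higher, by 1.48 to 2.04 times, and Snhg8 was lower by 1.53 times. Gas5, the most abundant in CPM, did not pass the test. The 6 of 10 genes called compare with 69.2% of all 15415 genes tested, and the 5 called higher with 34.7%, so the count called is near the background. Differences are on the log2(CPM + 1) scale and p-values are limma's, adjusted over all genes (Benjamini-Hochberg), with 0.05 as the threshold.

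Snhg15, host of Snora9, ranged from 145 to 232 CPM in 7 stem cell libraries (median 174). The progenitors had 126 and 83.8 CPM in wild-type cells and 66.8 and 80.0 CPM in uninduced OKMS and OKS cells. All stem cell libraries thus lay above all progenitor libraries. The difference was 1.03 (SE 0.16, adjusted p = 4.49e-05). Snhg8, host of Snora24, went the opposite way without overlap, from 173 to 214 CPM in stem cells against 415, 314, 254 and 257 CPM in the progenitors. Its difference was -0.61 (SE 0.13, adjusted p = 0.000754). Both are hosts of an H/ACA snoRNA. The share of all genes whose R10 groups separate in this way was not counted.

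Snhg5, the host of Snord50a and Snord50b, spanned 141 to 228 CPM in stem cells (median 194) and had 165, 114, 109 and 96.4 CPM in progenitors. Only the R1 library without an n number (141 CPM) lay below the highest progenitor library. The difference was 0.67 (SE 0.15, adjusted p = 0.00106). Snhg1 ran from 182 to 354 CPM (median 331), against 205, 196, 183 and 192 CPM, and again the lowest stem cell value was that R1 library. Its difference was 0.59 (SE 0.16, adjusted p = 0.00387). Snhg12 had 77.5 to 126 CPM (median 90.2) against 84.5, 60.8, 49.6 and 45.0 CPM, with an overlap through the first wild-type library. Its difference was 0.65 (SE 0.17, adjusted p = 0.00313). Snhg20 overlapped more, at 46.6 to 94.9 CPM (median 74.2) against 64.2, 44.8, 36.5 and 45.6 CPM. Its difference of 0.56 (SE 0.20, adjusted p = 0.0196) was no longer called without the uninduced OKMS library (adjusted p = 0.0802).

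The other 4 did not pass the test. Gas5 had 681 to 1173 CPM in stem cells (median 991) and 1405, 1007, 812 and 783 CPM in progenitors, a difference of -0.07 (SE 0.18, adjusted p = 0.748). Snhg6 differed by 0.23, Snhg3 by 0.07 and Snhg4 by -0.26, and the groups overlapped in each. The median difference of the 10 hosts was 0.40, beside 0.01 for all genes. Of the 6 rows below the limit of the choice, Snhg16 and Snhg11 were called higher and Snhg18 lower, while Snhg14 was not tested.

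**Figure D1:**
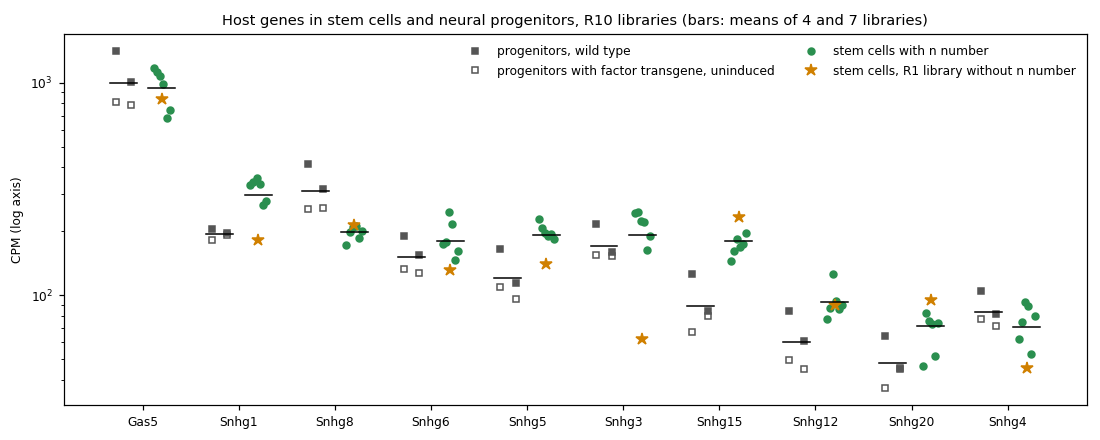
Level of each host gene (CPM, log axis) in R10 progenitors (squares, filled for wild type) and stem cells (circles, star for the R1 library without an n number), each point 1 library and each bar a mean. Snhg15 stem cells all lie above the progenitors and Snhg8 stem cells all lie below them, while the starred library is the lowest stem cell point for Snhg1, Snhg6, Snhg5, Snhg3 and Snhg4.

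With the starred R1 library alone as stem cells, 1 host was called, Snhg3 (-1.43, adjusted p = 0.0190), beside 33.7% of all genes, and Snhg1 turned to -0.09 (adjusted p = 0.464). That arm is 1 library, assumed to vary like the progenitors, which gave the spread. With the other 6 libraries, 7 hosts were called, beside 73.1% of all genes, Snhg3 among them (0.32, adjusted p = 0.0424). The libraries differ in mitochondrial share as given above, and the progenitors ran from 0.153% to 1.12%. The part of that in the results was not tested. Against the 2 wild-type progenitor libraries alone, 3 hosts stayed past the threshold, Snhg8 (-0.86), Snhg5 (0.47) and Snhg15 (0.79), beside 59.0% of all genes.

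R9 gave 3 hosts higher in stem cells, Snhg15, Snhg5 and Snhg1, beside 43.5% of 15746 genes called in either direction and 21.5% called higher. These are other libraries of the same cell types, and the labels do not say whether they share RNA with the R10 ones. Snhg15 had 131 and 134 CPM in stem cells and 70.9, 62.0, 78.1 and 54.0 CPM in progenitors, a difference of 1.00 (SE 0.17, adjusted p = 0.00434). Snhg5 had 263 and 196 CPM against 106, 94.9, 136 and 143 CPM, a difference of 0.94 (SE 0.22, adjusted p = 0.0145). Snhg1 had 448 and 360 CPM against 247, 200, 284 and 255 CPM, a difference of 0.71 (SE 0.17, adjusted p = 0.0154). Stem cells and progenitors did not overlap in any of these 3, nor in Gas5 and Snhg12, which were not called. How many of all genes separate in this way was not counted. Snhg8 had 222 and 166 CPM against 286, 237, 244 and 327 CPM, without overlap, and missed the threshold (-0.50, SE 0.19, adjusted p = 0.0752). With 2 stem cell libraries the count hangs on each of them: without either, none of the hosts was called by limma, although 25.7% of all genes were without the O4G library and 24.8% without the R1 library (at an unadjusted p under 0.05, 2 hosts beside 37.4% of all genes without the O4G library and 3 beside 36.7% without the R1 library).

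Which parts of the snoRNA host gene a transcript keeps can be read from its structure. Of the 680 transcripts, 96 matched an annotated splice chain in full and 423 had a splice site outside the annotation. A snoRNA lay in an exon, where splicing does not free it, in 261 transcripts. By TPM over all libraries, transcripts with their snoRNAs in introns alone made up 94.2% of Gas5, 98.1% of Snhg6, 97.3% of Snhg8 and 99.8% of Snhg3, but 56.4% of Snhg12. Reads were not recovered from TPM, so those behind a share are not given.

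In 6 of the 10 hosts the share of TPM in transcripts with a snoRNA in an exon was higher in R10 stem cells than in progenitors at an unadjusted p under 0.05 (2-sided exact permutation test over 7 and 4 libraries, 10 hosts compared). Among 97 snoRNA hosts outside the family that have a transcript with a snoRNA in an exon and a gene total of at least 5 TPM in each of these libraries, 15.5% had a higher share by the same test, and 10 had a lower one. The non-coding hosts Dancr (21.2% in progenitors and 74.9% in stem cells, exact p = 0.00303) and Epb41l4aos (4.47% and 14.9%, exact p = 0.0212) were among the higher ones. A rise was thus also found in hosts outside the family, but in a smaller share of them. The median difference was 3.89 percentage points over the 10 hosts and -0.009 over the 97 outside the family. The share of Snhg12 went without overlap of the groups from 48.5 ± 4.66% (SD, n = 4) to 65.3 ± 5.47% (SD, n = 7), with exact p = 0.00303, the smallest that these groups allow. Snhg8 went from 1.94 ± 0.253% to 7.12 ± 2.19% at the same exact p. Snhg4 had 16.2% and 35.6% (exact p = 0.00909), Snhg1 10.6% and 17.8% (exact p = 0.0121), Gas5 5.04% and 7.64% (exact p = 0.0182) and Snhg5 2.37% and 4.57% (exact p = 0.00606). Without the R1 library that has no n number, the same 6 hosts were higher at an unadjusted p under 0.05, beside 18.4% of 98 hosts outside the family. That library had the lowest stem cell share for Snhg8, 2.92% against 6.40 to 9.59% in the other 6. For Snhg4 it had the highest, 48.0% against 25.7 to 43.5%. It also had the lowest for Gas5 (6.02%, within the 4.29 to 6.72% of progenitors), Snhg1 (14.1%) and Snhg12 (57.7%). For Snhg5 it had the highest (6.19%). Without it the stem cell means were 7.82% for Snhg8 (exact p = 0.00476, the smallest that 6 and 4 libraries allow) and 33.5% for Snhg4 (exact p = 0.0143). In R9 none of the 10 passed, at a smallest possible exact p of 0.0667. There Snhg12 had 40.6 ± 19.6% (SD, n = 4) and 54.7 ± 15.1% (SD, n = 2), while Gas5 had 6.15% and 6.01%, Snhg5 4.94% and 2.63% and Snhg4 5.47% and 5.36%.

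For single transcripts, 7 of the 287 tested changed their share of the gene's TPM in R10 stem cells (limma, adjusted p under 0.05 and at least 10 percentage points), where 9.11% of all 42227 transcripts tested did. They belong to Snhg5, Snhg12, Snhg20 and Snhg4. In Snhg5 the leading transcript, with 5 exons and both Snord50 loci in introns, fell by 23.9 percentage points (SE 4.02, adjusted p = 0.00384), from 52.7 to 55.6% in progenitors to 21.7 to 32.1% in 6 stem cell libraries, with 47.6% in the R1 library without an n number. A pair of short Snhg5 transcripts rose, and both end before the Snord50 loci, so neither holds a snoRNA in an exon or an intron. One has 2 exons and 446 bases, with 1.97 to 3.85% in progenitors and a median of 17.4% in stem cells (13.4 points, adjusted p = 0.0157). The other has 3 exons and 216 bases, with a median of 14.0% (13.2 points, adjusted p = 0.0224). In the R1 library without an n number they had 3.20% and 0%. After the end of the 2-exon form, 55.0% of the genomic bases are A by the deposited classification, and the part of priming at such a stretch was not tested. In R9 that form had a lower share in stem cells, 7.94 and 4.02% against 9.95 to 20.3% in progenitors (-9.12 points, adjusted p = 0.407). The 3-exon form had 0 and 0% in R9 stem cells against 9.85, 0, 0 and 0% in progenitors. The leading Snhg5 form had 35.6 and 32.8% in R9 stem cells against 37.3 to 54.1% in progenitors.

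In R10, Snhg12 shifted between an intronic and an exonic form of 1 snoRNA. Its leading transcript, with all 4 snoRNAs in introns, fell from 22.5 to 31.2% in R10 progenitors to 6.01 to 16.2% in stem cells, by 13.5 percentage points (SE 2.26, adjusted p = 0.00367). A 4-exon transcript that keeps Snora61, printed above, in an exon rose from 11.1 to 20.7% to 25.7 to 36.7%, by 14.2 points (SE 2.22, adjusted p = 0.00262). The groups did not overlap in either, and the share of all transcripts that separate in this way was not counted. In R9 the groups overlapped in both: the leading form had 35.4 and 26.2% in stem cells against 7.48 to 64.2% in progenitors, and the form with Snora61 in an exon 10.2 and 13.8% against 0 to 13.9%. In Snhg20 the leading 2-exon transcript fell from 84.5 to 93.5% to 55.6 to 72.6% (-27.7 points, adjusted p = 0.000444), and in Snhg4 a 4-exon transcript fell from 25.2 to 60.2% to 9.06 to 20.3% (-27.6 points, adjusted p = 0.0161). In R9 the Snhg20 form had 78.00 and 81.48% in stem cells against 81.55 to 98.51% in progenitors. The Snhg4 form overlapped there, at 34.9 and 0% against 0 to 64.0%. R9 called 1 member transcript, the 6-exon Snhg5 form (12.3 points, adjusted p = 0.0312), which in R10 had a lower share in stem cells (-3.86 points). The share of all transcripts called in that R9 fit is not given here, so this count cannot be set against the background.

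**Figure D2:**
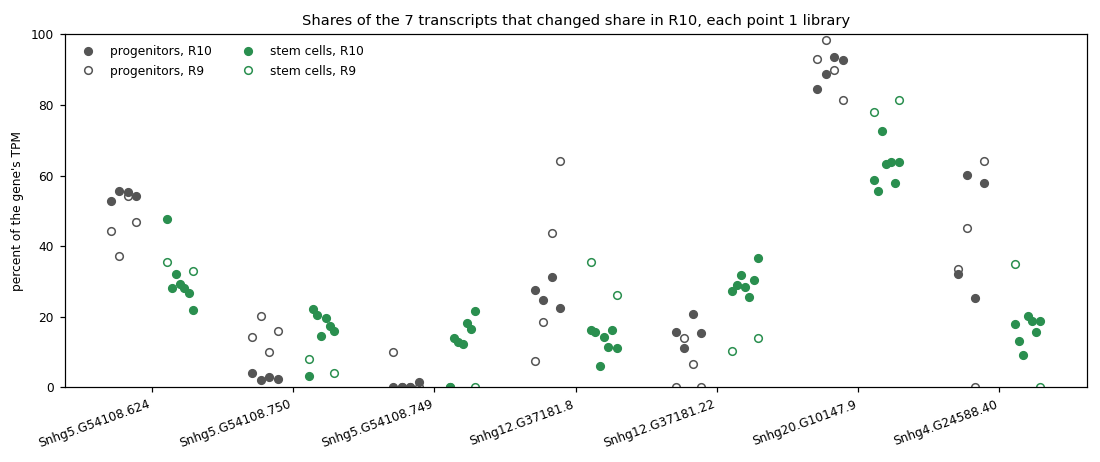
Share of the gene's TPM (percent) held by each of the 7 transcripts called in R10, in progenitors (grey) and stem cells (green), R10 filled and R9 open, each point 1 library. In R10 the groups do not overlap for the Snhg12, Snhg20 and Snhg4 transcripts, while the 3 Snhg5 transcripts each have 1 stem cell library near or within the progenitor range.

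Without any factor, 2 days in serum medium with doxycycline lowered most of the hosts. In R10, 7 of 10 were called lower than in progenitor medium, beside 28.7% of 14688 genes called and 13.1% called lower. They were Snhg4, Snhg5, Snhg12, Snhg15, Snhg6, Snhg3 and Gas5. Snhg20 alone of the 10 had higher values in both serum libraries. The medium and the drug changed together and cannot be told apart here. The 2 wild-type progenitor libraries also entered the stem cell comparison.

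Snhg4 had 20.4 and 10.9 CPM in serum and 104 and 81.5 CPM in progenitor medium, 5.86 times lower (log2 difference -2.55, SE 0.36, adjusted p = 0.00688). Snhg5 had 43.5 and 25.7 CPM against 165 and 114 CPM, 4.01 times lower (SE 0.34 on the log2 scale, adjusted p = 0.0113). Snhg12 had 18.4 and 20.8 CPM against 84.5 and 60.8 CPM, 3.54 times lower (-1.82, SE 0.27, adjusted p = 0.00846). In each of these 3 genes both serum libraries lay below both libraries in progenitor medium.

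Snhg15 had 41.5 and 23.4 CPM against 126 and 83.8 CPM (-1.69, adjusted p = 0.0223), and Snhg6 had 54.8 and 55.0 CPM against 191 and 154 CPM (-1.62, adjusted p = 0.00603). Snhg3 had 99.4 and 68.9 CPM against 216 and 160 CPM (-1.16, adjusted p = 0.0308). Gas5, which is named for its rise when cultured cells stop growing, had 559 and 567 CPM in serum against 1405 and 1007 CPM in progenitor medium (-1.08, SE 0.26, adjusted p = 0.0326). None of these groups overlapped, and neither did those of the hosts that did not pass. How many of all genes separate in this way with so few libraries was not counted. Snhg1 (-1.10, adjusted p = 0.0523) and Snhg8 (-0.69, adjusted p = 0.0939) did not pass by limma, nor did Snhg20, with 310 and 74.1 CPM in serum against 64.2 and 44.8 CPM (1.49, adjusted p = 0.144). DESeq2 on the recovered reads called Snhg1 lower (adjusted p = 0.0474) and Snhg20 higher (adjusted p = 0.00657) as well, while edgeR did not call Gas5 (adjusted p = 0.0616).

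The R9 libraries, 1 in serum and 2 in progenitor medium, had lower serum values for 9 of the 10 hosts. Snhg4 alone was called there (17.0 CPM against 89.6 and 92.0 CPM, -2.35, adjusted p = 0.0416), beside 9.40% of all genes. The spread in that fit comes from the 2 progenitor libraries alone, and the serum library is assumed to vary like them. The R10 calls rest on 2 libraries a group, and leaving out any 1 of the 4 left no host called by limma (4 to 7 of 10 at an unadjusted p under 0.05). Of all genes, 7.04% were called without serum replicate 3 and 0.00% without any other of the 4. At an unadjusted p under 0.05 there were 7 hosts beside 35.3% of all genes without serum replicate 2, 6 beside 38.6% without serum replicate 3, 4 beside 20.2% without progenitor medium replicate 2 and 7 beside 20.3% without progenitor medium replicate 3. Astrocyte markers summed to 2158 and 4151 CPM in the serum libraries and 39.4 and 94.7 CPM in progenitor medium (3 of 4 markers called higher). Mesenchymal markers summed to 206 and 84.2 CPM against 6.67 and 18.4 CPM (2 of 4 tested called higher). Of 6 neural progenitor markers, 4 were called lower in serum. The part of such cells in these differences was not tested. In bulk RNA, fewer cells of a type and less RNA per cell cannot be told apart.

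**Figure D3:**
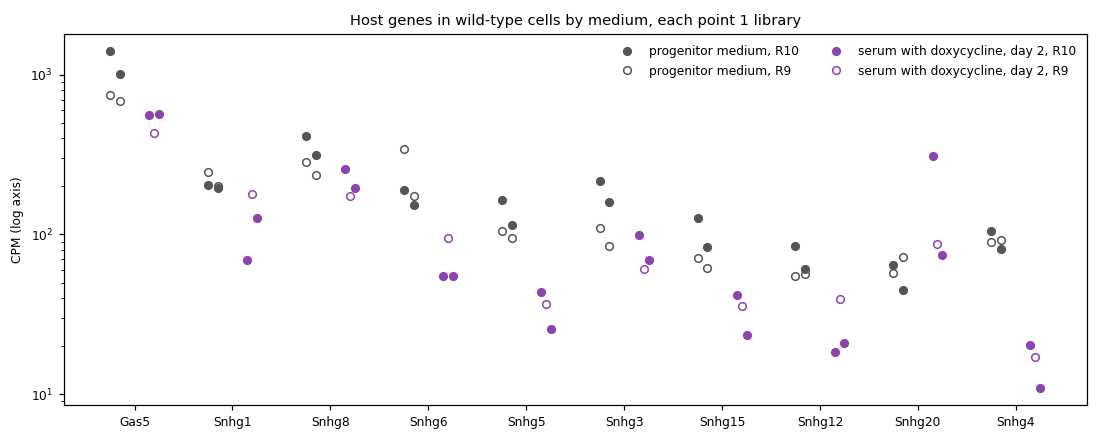
Level of each host gene (CPM, log axis) in wild-type cells in progenitor medium (grey) and after 2 days in serum medium with doxycycline (purple), R10 filled and R9 open, each point 1 library. Serum points lie below the progenitor medium points of the same chemistry for every gene except Snhg20, where the 3 serum points lie above.

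In the same medium, most hosts had higher levels in OKMS than in OKS cells. At days 2 to 20 in R9, 8 of 10 hosts were higher in OKMS than in OKS cells (limma with day as a block), beside 28.0% of 14277 genes called and 12.3% called higher in OKMS. The 8 were Snhg15, Snhg12, Snhg1, Snhg5, Snhg3, Snhg4, Snhg6 and Gas5, by 1.72 to 2.73 times. Snhg8 and Snhg20 did not pass. There was 1 library per system and day, so the days stood as replicates. These p-values thus measure the spread between days, not between separate reprogramming experiments. Factor set and factor line cannot be told apart. Without day 6 the calls of Snhg6 (adjusted p = 0.102), Snhg4 (0.0766) and Snhg3 (0.0505) were lost and 5 stayed, beside 16.2% of all genes. The median difference of the 10 hosts was 0.94 and that of all genes -0.11.

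Snhg15 had 79.1, 163, 173, 152, 148 and 170 CPM in OKMS cells at days 2, 4, 6, 10, 14 and 20, and 28.1, 41.0, 60.2, 29.0, 75.3 and 124 CPM in OKS cells. OKMS was higher on each day, and the gap was narrowest at day 20. The difference was 1.45 (SE 0.23, adjusted p = 0.00137). Snhg12 had 84.8, 144, 119, 111, 121 and 172 CPM in OKMS and 21.4, 30.5, 52.2, 49.1, 52.9 and 90.5 CPM in OKS cells (1.43, SE 0.20, adjusted p = 0.000957). Snhg1 had 294, 628, 600, 617, 474 and 441 CPM in OKMS and 140, 125, 161, 158, 244 and 440 CPM in OKS cells (1.37, SE 0.25, adjusted p = 0.00269). By day 20 Snhg1 stood at the same level in both.

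Gas5 had 635, 1058, 944, 975, 743 and 573 CPM in OKMS and 321, 451, 451, 480, 499 and 640 CPM in OKS cells, so its order turned at day 20. Its difference over the 6 days was 0.79 (SE 0.19, adjusted p = 0.0096). Snhg5 differed by 1.10 (adjusted p = 0.00311), Snhg3 by 0.96 (adjusted p = 0.0113), Snhg4 by 0.92 (adjusted p = 0.0239) and Snhg6 by 0.87 (adjusted p = 0.0419). Snhg8 had 228 to 262 CPM in OKMS and 149 to 298 CPM in OKS cells (0.28, adjusted p = 0.226). Snhg20 leaned the other way (-0.47, adjusted p = 0.0825).

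The ratio between the systems was above 1 at day 2 to day 14 and just below it at day 20. The median ratio of OKMS to OKS over the 10 hosts was 1.10 in uninduced cells, 2.04 at day 2, 3.16 at day 4, 2.15 at day 6, 2.30 at day 10, 1.72 at day 14 and 0.949 at day 20. Over days 2 to 10 alone 8 hosts were called, beside 27.6% of all genes. Over days 14 and 20 alone none was by limma (1 at an unadjusted p under 0.05, beside 10.1% of all genes), and with only 2 pairs 0.0897% of all genes were, so that count says little about the late days. Across days 2 to 10, astrocyte markers summed to 1153 to 1696 CPM in OKS and 188 to 740 CPM in OKMS cells, and pluripotency markers to 83.0 to 126 and 68.9 to 4909 CPM. The pluripotency sum includes Pou5f1, so part of it may be reads of the introduced Oct4. The part of these differences in cell make-up in the host levels was not tested. Whether induction changed the hosts differently in the 2 systems was tested on its own over 14 libraries, and no host passed by limma (0 at an unadjusted p under 0.05, beside 3.44% of all genes, and 0.00% of all genes called). That fit had 1 uninduced library per system and no term for day, so changes between days entered its spread. It therefore could not settle the question, and host estimates ran from -0.34 in Snhg20 to 1.25 in Snhg6.

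R10 held OKMS and OKS pairs at days 2, 6 and 18. The day 18 libraries belong to the later set of sample numbers, so day 18 and set cannot be told apart. The median OKMS to OKS ratio of the hosts was 1.02 in uninduced cells, 4.17 at day 2, 2.89 at day 6 and 1.82 at day 18. Snhg12 had 140, 111 and 193 CPM in OKMS and 25.7, 31.1 and 89.6 CPM in OKS cells, and Gas5 had 1092, 1275 and 1736 against 424, 477 and 565 CPM. Both were higher in OKMS on all 3 days. At day 18, Snhg4 and Snhg5 were lower in OKMS cells, at 0.716 and 0.885 times the OKS level, after 4.28 and 2.82 times at day 6. With 3 pairs no gene of the table was called by limma (0.00% of 15135), and at an unadjusted p under 0.05 there were 9 of the 10 hosts and 15.8% of all genes. Their adjusted p ran from 0.235 upward.

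At day 2 in R10 the wild-type cells in serum stood beside both systems. Snhg12 was at 18.4 and 20.8 CPM in wild-type cells, 25.7 CPM in OKS and 140 CPM in OKMS cells. Snhg4 was at 20.4 and 10.9 CPM in wild-type cells, 19.0 CPM in OKS and 117 CPM in OKMS cells. Uninduced OKMS cells had 49.6 and 76.9 CPM of these 2 genes. For each host but Snhg20 the OKS library lay nearer to the wild-type serum libraries than to the OKMS library. With 1 library per system at that day, this is a description.

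**Figure D4:**
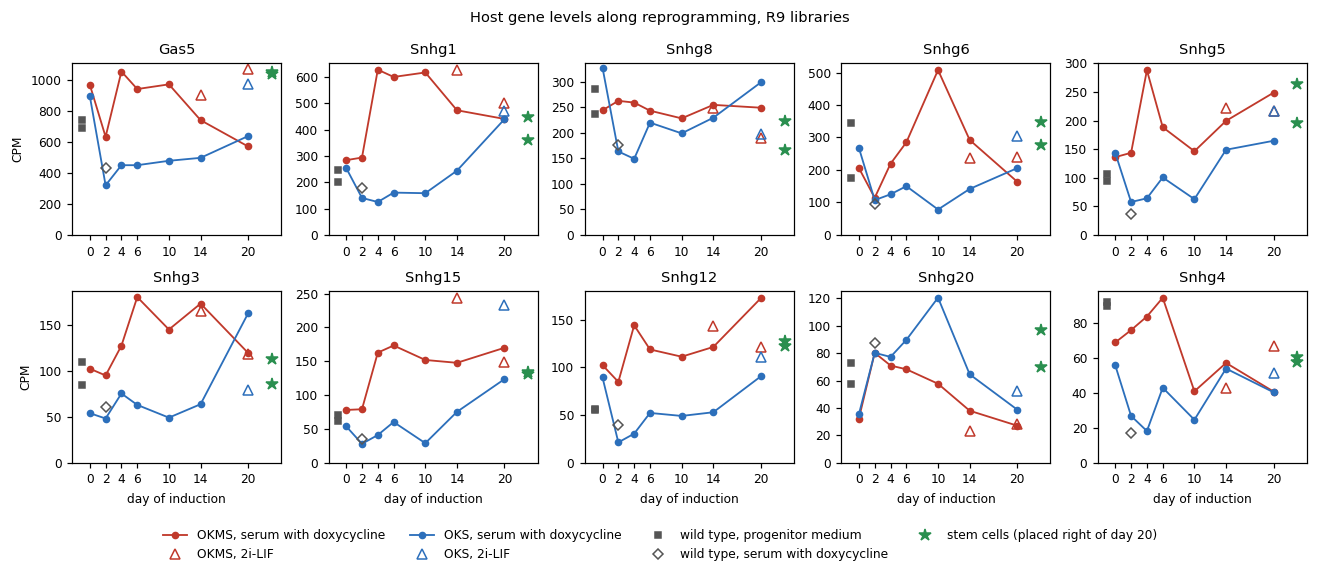
Level of each host gene (CPM) by day of induction in R9, for OKMS (red) and OKS (blue) cells in serum medium with doxycycline (lines) or 2i-LIF (triangles), with wild-type cells (grey, progenitor medium left of day 0) and stem cells (stars right of day 20), each point 1 library. The OKMS line runs above the OKS line from day 2 to day 14 for the 8 called genes, and in Snhg20 both lines rise by day 2 and return by day 20.

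Along the R9 time course, with both systems as replicates of a day, Snhg20 was the 1 host called, beside 10.8% of 19357 genes. The count called, 1 of 10, is thus near the background. Snhg20 had 32.3 and 35.4 CPM in uninduced OKMS and OKS cells and 80.2 CPM in both at day 2. OKMS cells then had 70.9, 68.2, 57.7, 38.0 and 27.1 CPM at days 4, 6, 10, 14 and 20, and OKS cells 77.2, 89.7, 120, 64.5 and 38.8 CPM. So it rose within 2 days, with its largest difference from day 0 at day 10 (1.28, SE 0.32, adjusted p = 0.0317 for the F test over days), and was back at -0.06 by day 20. Astrocyte markers moved with it in OKS cells, where they summed to 137 CPM at day 0, 1483, 1569, 1696 and 1153 CPM at days 2 to 10, 456 CPM at day 14 and 103 CPM at day 20. In OKMS cells they summed to 121 CPM at day 0, 740 CPM at day 2, 188 to 240 CPM at days 4 to 10 and 35.7 CPM at day 20. Over days 3 of 4 astrocyte markers were called, Clu and Gfap higher and S100b lower at their largest difference. Mesenchymal markers summed to 16.2 CPM at day 0, 276 to 518 CPM at days 2 to 14 and 75.1 CPM at day 20 in OKMS cells. In OKS cells they summed to 42.2 CPM, 623 to 2422 CPM and 374 CPM at these days. Of the 5 mesenchymal markers, 2 were called higher over days. The part of such cells in the Snhg20 levels was not tested. Wild-type cells in serum at day 2 had 87.7 CPM of Snhg20, above the 80.2 CPM of both systems at that day. The call is lost with median centring, where the median gene of the table moves, and without day 2 or day 20.

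None of the other 9 hosts passed over days by limma. edgeR on the recovered reads also called Snhg15 (adjusted p = 0.00183), Snhg12 (adjusted p = 0.0217) and Snhg5 (adjusted p = 0.0312), and DESeq2 also called Snhg15 (adjusted p = 0.0439). By limma, Snhg15 came nearest (1.15 at day 20, adjusted p = 0.165). Gas5 had its largest difference at day 2 (-1.05, adjusted p = 0.441), and so did Snhg12 (-1.14, adjusted p = 0.221).

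2i-LIF and serum medium with doxycycline were compared in 5 pairs of the same chemistry, system and day (limma with the pair as a block). Gas5 was the 1 host called, beside 15.4% of 14935 genes, so the count called is not above the background. Gas5 had 909, 1075 and 979 CPM in 2i-LIF in R9 (OKMS day 14, OKMS day 20, OKS day 20) against 743, 573 and 640 CPM in serum. In R10 at day 18 it had 1733 and 890 CPM in OKMS and OKS cells against 1736 and 565 CPM. Gas5 was higher in 4 of 5 pairs and level in the remaining one, with a difference of 0.49 (SE 0.16, adjusted p = 0.0407). The call is lost without any 1 of 4 pairs, all but R10 OKMS day 18 (adjusted p from 0.0806 to 0.153), and when the R9 or R10 pairs stand alone. Cell type markers also differed between the media: 4 of 6 pluripotency markers were called higher in 2i-LIF, 3 of 4 epithelial and 2 of 5 tested neural progenitor markers lower. In R10 OKS cells at day 18, summed neural progenitor markers were 1241 CPM in serum and 90.7 CPM in 2i-LIF, and summed pluripotency markers 5676 and 14028 CPM. The part of these cells in the Gas5 levels was not tested. Without R9 OKMS day 20, Gas5 was at 0.39 (adjusted p = 0.118) and Snhg15 was called in its place (0.73, adjusted p = 0.0126).

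Snhg15 was higher in 2i-LIF in 4 of 5 pairs, at 0.879 to 2.19 times the serum level (log2 difference 0.55, adjusted p = 0.0606). Snhg8 was lower in 5 of 5 pairs, at 0.663 to 0.975 times the serum level (-0.37, adjusted p = 0.11). Snhg1, Snhg5, Snhg12 and Snhg20 were higher in 4 pairs each, with adjusted p from 0.307 upward. The labels list no doxycycline for 2i-LIF, so medium and drug changed together here too.

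**Figure D5:**
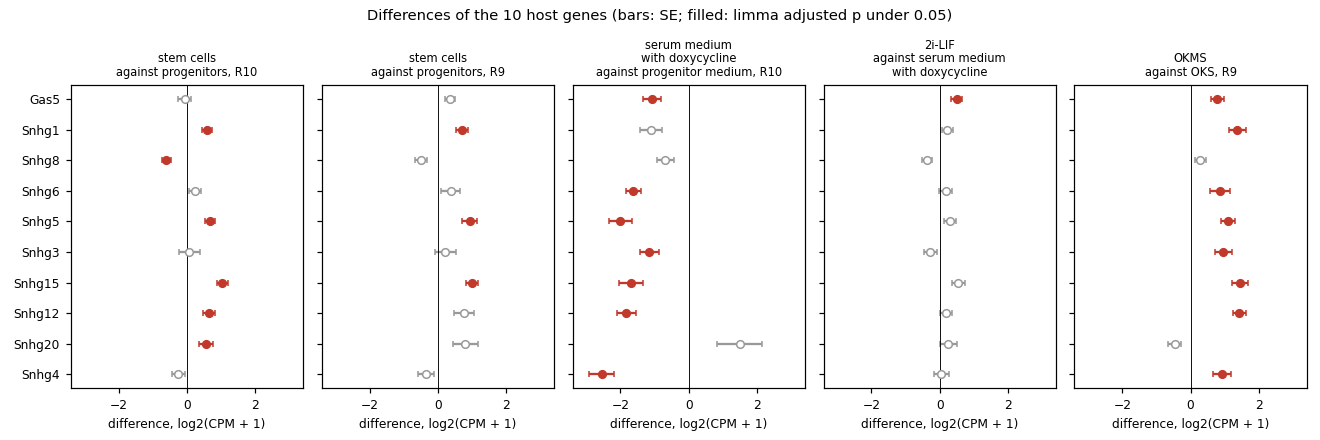
Difference of each host gene on the log2(CPM + 1) scale with its SE in 5 comparisons, filled where the limma adjusted p is under 0.05. Most points lie right of 0 for stem cells and for OKMS, and 9 of 10 lie left of 0 for serum medium with doxycycline, Snhg20 being the exception.

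The hosts moved largely together across the 45 libraries, with Snhg20 apart. Of the 45 pairs among them, 36 had a Pearson r above 0 after centring within each chemistry, and the median r was 0.68. The 9 pairs below 0 were those with Snhg20. Snhg15 and Snhg12 were the closest pair (r = 0.92). Each gene against the mean of the other hosts gave r = 0.91 for Snhg12, 0.51 for Snhg8 and -0.39 for Snhg20. The libraries share conditions and depth, so these are descriptions.

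Among 10156 genes present in at least 40 libraries, those most like the mean of the hosts over 45 libraries were Rps12 (r = 0.92), Rpl12 (r = 0.91), Epb41l4aos (r = 0.91), Eef1b2 (r = 0.90) and Rpl4 (r = 0.90). Rps12, Rpl12 and Rpl4 encode ribosomal proteins and Eef1b2 a subunit of an elongation factor. All 5 hold snoRNA loci, and all but Rpl12 are in the lists of hosts counted below. Next came Rpl7, Rpl13a, Rpl10a, Rps19 and Rpl22, of which Rpl13a alone is in those lists. The share of snoRNA hosts among the 10156 genes was not counted.

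Other genes of the snoRNA pathway were counted in the same fits, and the values given for them are log2 differences. Their counts stand beside the shares of all genes given above: 34.7% called higher in R10 stem cells, 21.5% higher in R9 stem cells, 13.1% lower in serum and 12.3% higher in OKMS. With 69.2% of all genes called in R10 stem cells, the counts of several lists there, such as 22 of 29 and 8 of 10, are near the background. Of 29 protein-coding snoRNA hosts, 19 were higher and 3 lower in R10 stem cells than in progenitors, and 13 were higher and 0 lower in R9. In wild-type cells in serum 21 were lower and 1 higher, and 24 were higher and 0 lower in OKMS than in OKS cells. The median difference of these 29 was 0.48 in R10 stem cells, 0.40 in R9 stem cells, -1.45 in serum and 1.10 in OKMS, beside 0.01, -0.07, 0.12 and -0.11 for all genes. Ncl, which encodes nucleolin, was higher in stem cells in both chemistries (0.94 and 1.09), lower in serum (-1.55) and higher in OKMS (1.14). Eif4a2, an initiation factor gene, was higher in stem cells (1.54 and 1.28) and, unlike the others, higher in serum (1.22, adjusted p = 0.0114). Rps2 had opposite signs in stem cells of R10 (-0.70) and R9 (0.66).

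Of the 4 genes of the box C/D particle, 3 were higher and 1 lower in R10 stem cells, 3 were higher in R9, 4 were lower in serum and 4 were higher in OKMS, with medians of 0.73, 0.92, -2.34 and 1.10. Nop58, a core protein of that particle, was higher in stem cells in both chemistries (1.44 and 1.16), as was Nop56 (1.08 and 1.05). Fbl, which encodes fibrillarin, the methyltransferase of the particle, was lower in R10 stem cells (-1.28, adjusted p = 0.00717) and higher in R9 ones (0.79, adjusted p = 0.00483). Of the 4 genes of the H/ACA particle, 1 was higher in R10 and 3 in R9 stem cells, 4 were lower in serum and 4 higher in OKMS, with medians of -0.09, 0.89, -2.35 and 1.46. Dkc1, the pseudouridine synthase of that particle, was the 1 called in R10 stem cells (adjusted p = 2.69e-08) and was higher in R9 by 1.76.

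Among 10 assembly factors, 8 were higher in R10 and 4 in R9 stem cells, 5 were lower in serum and 7 higher in OKMS (medians 0.73, 0.54, -1.10 and 0.99). Nufip1 (1.85 and 1.52), Znhit6 (1.29 and 1.11), Ruvbl2 (0.63 and 0.81) and Nolc1 (0.71 and 0.65) were higher in stem cells in both chemistries. Of 10 nonsense-mediated decay genes, the pathway that removes many spliced host RNAs, 5 were higher and 3 lower in R10 stem cells, 2 higher and 1 lower in R9, 1 lower in serum and 1 higher in OKMS (medians 0.29, 0.64, -0.28 and 0.37). Smg6, the endonuclease of that pathway, was lower in stem cells in both chemistries (-1.53 and -2.06) and in serum (-1.48, adjusted p = 0.0181). Upf1, its helicase, had opposite signs in R10 (-1.14) and R9 (0.87). Of 4 other non-coding hosts, 3 were higher in R10 and 1 in R9 stem cells. Rian, an RNA of an imprinted locus, was higher in stem cells in both (7.08 and 5.78). Few genes of these lists were called in the other 2 comparisons. Over days, beside 10.8% of all genes, they were Cct6a of the 29 coding hosts, Nufip1 and Znhit3 of the 10 assembly factors, all 3 higher, and Smg6, lower. In 2i-LIF against serum, beside 15.4% of all genes, Nop56 (0.47, adjusted p = 0.045), which is in the coding host and box C/D lists, and Rian (1.76, adjusted p = 0.0299) were higher. Nop10 of the H/ACA particle (-0.54, adjusted p = 0.0298) and the assembly factors Naf1 (-0.70, adjusted p = 0.0496) and Ruvbl2 (-0.47, adjusted p = 0.0495) were lower.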

How the data were processed

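Gene levels were CPM and transcript levels TPM, both as deposited by the authors. Reads were aligned with minimap2 2.24-r1122 to mm10, per the submitters' processing notes. The counter's version and use of strand are not given in the sources used here. CPM values gave whole reads in each library (100% of values within 0.02 reads), which set the depth. The gene table held 13 columns that matched no sample and were not used, and 20 gene names that had been turned into numbers.

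Tests used limma 3.58.1 (R 4.3.3) on log2(CPM + 1), which understates changes of low genes, over genes with a CPM of at least 1 in as many libraries as the smaller arm (2 for the time course), with Benjamini-Hochberg adjustment over all genes. Called means an adjusted p under 0.05. Transcript shares were percentages of a gene's TPM. Alternatives were a pseudocount of 0.25, other filters and scalings, edgeR 4.0.16 and DESeq2 1.42.0 on the recovered reads, and other arms. The scripts were tested on simulated data. Named genes were the 10 hosts, the transcripts called for share, the 5 most alike genes and pathway genes called in both chemistries. Members and lists were chosen with earlier results of these data known.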

Additional observations from a re-analysis of the deposited data

Results flagged for a closer look

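In R10 progenitors, Snhg3 had 216 CPM in wild-type replicate 2, while the next library had 160 and the lowest 154 CPM. The gap to the next library was 0.892 of the range of the group, more than the 95% limit of Dixon's test for 4 libraries.

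In R10 stem cells, Snhg12 had 126 CPM in replicate 1 of R1 clone 3, against 94.1 CPM in the next and 77.5 CPM in the lowest library, a gap of 0.66 of the range. Chance gives such a gap in about 1 of 20 groups, and 30 groups were looked at.

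In R10, Gas5 was above its uninduced level at days 2, 6 and 18 in OKMS cells and below it at these days in OKS cells. The R10 OKMS libraries at days 4 and 10 have no OKS partner and were left out here. The day 18 libraries belong to the later set of sample numbers and the uninduced ones do not. The mean log2 change was 0.72 in OKMS and -0.69 in OKS cells, 1.41 apart. This difference was not tested. In R9, Gas5 had 973 CPM in uninduced OKMS cells and 635, 1058, 944, 975, 743 and 573 CPM at days 2 to 20, so it was below the uninduced level on 4 of 6 days. The limma test of the difference between the systems there did not pass (0.67, SE 0.54). With 1 uninduced library per system and no term for day, it could not settle the question.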

How the results depend on the processing

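Of the single values recomputed under the alternatives, 1270 kept their direction and side of the threshold, 122 were weaker, 33 stronger, 31 moved (changed direction, called in neither fit) and 4 reversed. The reversed ones were Snhg1 (-0.0877) and Snhg3 (-1.43) with the R1 library without an n number alone as stem cells, and 2 Snhg5 transcript shares in R9 (-9.12 and 12.3 percentage points). Causes were not tested.

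Counts of called hosts moved as follows, with the share of all genes called in the same fit in brackets where it is not given above. R10 stem cells against progenitors (6) gave 1 when a log2 difference of 1 or more was also asked for (the size limit, 45.8%), 1 with that R1 library alone and 3 with wild-type progenitors alone. Leaving out 1 library gave 5 to 7 (65.3 to 73.1%). R9 stem cells (3) gave 6 with median centring (45.1%), 6 with DESeq2 (34.0%), 1 with the size limit (36.0%) and 0 to 4 leaving out 1 library (24.8 to 46.6%). They gave 4 with edgeR (44.5%) and 4 with a minimum of 5 CPM (50.8%). Serum against progenitor medium (7) gave 6 with edgeR (27.7%), 9 with DESeq2 (24.2%), 8 with a minimum of 5 CPM (34.0%), 9 with both chemistries together (40.0%), 1 in R9 and 0 to 0 leaving out 1 library. The time course (1) gave 0 with median centring (15.4%), 4 with edgeR (24.8%), 2 with DESeq2 (14.3%), 0 with day as a line (11.4%) and 0 to 1 leaving out 1 day (3.23 to 12.9%). 2i-LIF against serum (1) gave 0 with a pseudocount of 0.25 (13.5%), without the filter (10.3%), with DESeq2 (10.0%), with the size limit (12.3%), without the block of pairs (15.0%) and in R9 (8.14%) or R10 (1.22%) pairs alone, 2 with edgeR (17.1%), and 0 to 1 leaving out 1 pair (8.95 to 15.5%). OKMS against OKS (8) gave 4 with the size limit (2567 of 14277 genes), 5 to 8 leaving out 1 day (5 without day 6), and, in alternatives added after seeing the data, 0 in R10, 0 in days 14 and 20 and 0 for the interaction. The same comparison gave 7 without the filter (15.3%) and 7 with quantile normalization (27.2%). Its fits leaving out 1 day called 16.2 to 32.9% of all genes. Transcript shares (7) gave 1 in R9, a Snhg5 form that is not among those 7. The share of all transcripts called there is not given. Hosts with a higher exonic share at an unadjusted p under 0.05 (6) came to 0 in R9, where 2 against 4 libraries cannot go below 0.0667, and stayed at 6 without that R1 library, both added after seeing the data. Median centring moved the median of all genes from 0.01 to 0.24 in R10 stem cells, where Snhg6 was then called too.

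The wild-type R10 libraries of both media share the replicate numbers 2 and 3, and nothing says what these mark. Deviations of same-numbered libraries correlated at 0.474, and with the replicate number as a block all 10 hosts were called, 9 lower and Snhg20 higher, beside 49.9% of all genes.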
